A study of Mus musculus with 32 samples.

Results

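The genes described here encode 9 enzymes of the late part of cholesterol synthesis, from lanosterol synthase to the dehydrocholesterol reductase: Lss, Cyp51, Tm7sf2, Msmo1, Nsdhl, Hsd17b7, Ebp, Sc5d and Dhcr7. They were taken by gene symbol, and all 9 were listed among 12791 genes measured at 10 mM glucose and among 12053 measured at 1 mM glucose. RNA was sequenced from mouse embryonic fibroblasts, a mixed culture of connective tissue cells taken from embryos, in which the endogenous Acly gene had been knocked out. Acly encodes ATP-citrate lyase (ACLY), which makes acetyl-CoA from citrate outside mitochondria. Every group carried this knockout and 1 of 4 constructs in the same vector. KO cells expressed the fluorescent protein mCherry alone, WT cells mCherry-tagged human ACLY, Cyto cells the tagged ACLY with a nuclear export sequence, and Nuc cells the tagged ACLY with added nuclear import sequences. Cells stood for 24 h in DMEM with 10% CS and 10 mM or 1 mM glucose. There were 4 libraries per construct and medium, except 3 for Cyto at 10 mM glucose, where the library numbered 3 was called an anomaly by the submitters and was not analysed here. The labels leave unsaid whether a group's libraries are separate cultures, or whether a construct line was 1 clone, so p-values measure the spread between these samples, which may be technical.

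Cholesterol is built from acetyl-CoA. The early enzymes turn it into squalene, and the enzymes described here close squalene epoxide into lanosterol, strip the extra methyl groups and move and remove double bonds until cholesterol results. The genes of both stretches are known targets of SREBP2, a transcription factor held in the endoplasmic reticulum while sterols are plentiful and released to the nucleus when they are scarce. When oxidised sterols accumulate, the nuclear receptor LXR turns on genes of cholesterol export instead.

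The stretches before the start sites of 5 members are shown because these genes define the main patterns: Nsdhl, Ebp and Sc5d had KO highest and WT lowest in both media, and Lss and Tm7sf2 had calls against KO at 1 mM glucose alone. Each is the 250 bases before the start site from RefSeq's GRCm38.p6 annotation, read 5′ to 3′ along the gene. The build of the expression tables is GRCm39, and the tables hold no coordinates. Capitals mark CCAAT boxes, written CCAAT on the shown strand or ATTGG where the box lies on the other.

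Nsdhl (chrX:72918271-72918520, plus strand): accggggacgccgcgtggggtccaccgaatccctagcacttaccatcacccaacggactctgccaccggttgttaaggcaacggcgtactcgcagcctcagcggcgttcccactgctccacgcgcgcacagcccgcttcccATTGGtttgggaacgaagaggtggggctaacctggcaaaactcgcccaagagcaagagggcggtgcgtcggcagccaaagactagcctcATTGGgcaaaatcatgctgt
Ebp (chrX:8193513-8193762, minus strand): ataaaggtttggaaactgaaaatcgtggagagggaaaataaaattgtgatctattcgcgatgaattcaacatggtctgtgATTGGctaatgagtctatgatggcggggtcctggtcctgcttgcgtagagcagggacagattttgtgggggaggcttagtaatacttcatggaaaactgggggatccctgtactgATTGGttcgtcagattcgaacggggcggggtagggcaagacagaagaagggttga
Sc5d (chr9:42264301-42264550, minus strand): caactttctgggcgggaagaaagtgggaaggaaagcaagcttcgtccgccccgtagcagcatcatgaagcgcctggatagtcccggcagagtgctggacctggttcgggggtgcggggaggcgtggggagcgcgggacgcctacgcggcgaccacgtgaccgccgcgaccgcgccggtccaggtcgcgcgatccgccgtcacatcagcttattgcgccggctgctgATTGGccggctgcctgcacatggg
Lss (chr10:76531355-76531604, plus strand): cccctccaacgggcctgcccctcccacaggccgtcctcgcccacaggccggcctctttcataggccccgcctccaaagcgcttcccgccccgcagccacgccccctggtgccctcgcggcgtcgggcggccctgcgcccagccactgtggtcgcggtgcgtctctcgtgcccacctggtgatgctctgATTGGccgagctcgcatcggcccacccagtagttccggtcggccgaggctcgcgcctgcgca
Tm7sf2 (chr19:6067851-6068100, minus strand): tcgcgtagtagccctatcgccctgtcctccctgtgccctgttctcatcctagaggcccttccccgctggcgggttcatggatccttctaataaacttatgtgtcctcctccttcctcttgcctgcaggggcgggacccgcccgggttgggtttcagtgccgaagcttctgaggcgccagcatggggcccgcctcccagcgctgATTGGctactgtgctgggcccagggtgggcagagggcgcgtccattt

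A CCAAT box, the letters bound by NF-Y, which is known to act beside SREBP, was found on either strand within at least 1 window of 9 of the 9 members, as it was for 37.5% of the 27018 genes with such windows. By window it was in 9 of the members' 11 and in 33.9% of all 32841. Dhcr7 had it before 1 of its 3 annotated starts, the one farthest downstream. The letters TCANNCCAC, a form of the SREBP element, were in 0 of the 11 windows of the members and in 3.52% of all windows. Only this form was searched, and 0 of 11 lies near that share. A lack of SREBP elements therefore cannot be read from it. The GC box GGGCGG was found for 9 members (35.4% of all genes) and the E-box CACGTG for 3, Hsd17b7, Sc5d and Dhcr7 (6.86% of all genes). These shares cover all annotated genes with such windows, measured here or not, and no share among the measured genes was computed. A match describes letters only. No binding was measured.

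All values are log2 counts, normalized by the authors and read here as log2 CPM with a small offset, so the depth of a library is unknown and a gene's value is not per transcript length. The linear values of a library summed to 951720 to 1031673 CPM at 10 mM and 933382 to 1097738 CPM at 1 mM glucose. Acly, the check of the labels, lay at 5.63 to 6.12 in KO, 10.14 to 10.28 in WT, 9.67 to 9.89 in Cyto and 8.98 to 9.24 in Nuc at 10 mM glucose, and at 5.19 to 5.43, 10.43 to 10.68, 10.41 to 10.55 and 8.87 to 9.05 at 1 mM glucose. KO was far below the other groups, and Nuc was the lowest of these. These values are those of the mouse gene, while the constructs carry human ACLY. How far construct reads were counted in them, and what of the knocked-out gene is still counted, is unknown. They are therefore no measure of construct level. Of 10 fibroblast markers 10 were listed, and their summed linear level per library was 28592 to 29986 in KO, 49035 to 50439 in WT, 40669 to 44018 in Cyto and 54851 to 58492 CPM in Nuc at 10 mM glucose. At 1 mM glucose these sums were 39059 to 45989, 63214 to 72225, 37029 to 40502 and 58068 to 63280, and the part of this difference in the results was not tested. Single fibroblast markers went both ways against KO at 1 mM glucose. Their log2 fold changes ran from -1.04 to 0.93 in WT, -1.77 to 0.49 in Cyto and -1.64 to 0.82 in Nuc. Of 6 epithelial markers 0 were listed. Of 6 leukocyte markers 4 were listed, without Ptprc and Adgre1, and of 5 endothelial markers 2 at 10 mM and 1 at 1 mM glucose, without Cdh5, with sums of at most 36.5 and 5.68 CPM. All 10 mM libraries were in batch 2 and all 1 mM libraries in batch 1, and the tables were normalized separately, so medium and batch cannot be told apart and levels were not compared between media.

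The first question was how cells with each form of ACLY differed from KO cells, and the 3 comparisons of a medium share the KO libraries. At 10 mM glucose 7 of the 9 genes were lower in WT than in KO and 0 were higher, with a median log2 fold change of -0.73. The table's share of genes called lower was 20.2%, and the median over all genes was -0.0014. The members were chosen with earlier results of these data known, so counts set against such shares support nothing by themselves. Calls came from limma's fit of all 4 constructs, with p-values adjusted by Benjamini-Hochberg over the whole table and a threshold of 0.05. In Cyto 5 were lower and 0 higher, or 3 lower without Cyto library 2 (median -0.35; 18.9% of all genes were called lower). In Nuc 6 were lower and Cyp51 alone was higher (median -0.62; 22.7% of all genes called in each direction). With 1 mM glucose the medians lay lower. All 9 genes were lower in WT and in Nuc, with medians of -2.09 and -1.58, against 28.5% and 29.5% of all genes. Cyto had 7 lower and 0 higher (median -1.33, 33% of all genes), and the exceptions were Lss and Cyp51, which act earliest of the 9. The fold was at least 2 for 9, 6 and 7 called members in WT, Cyto and Nuc at 1 mM glucose and for 4, 1 and 3 at 10 mM glucose. The share of all genes at this cut was not computed, so these counts cannot be set against a background.

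**Figure D1:**
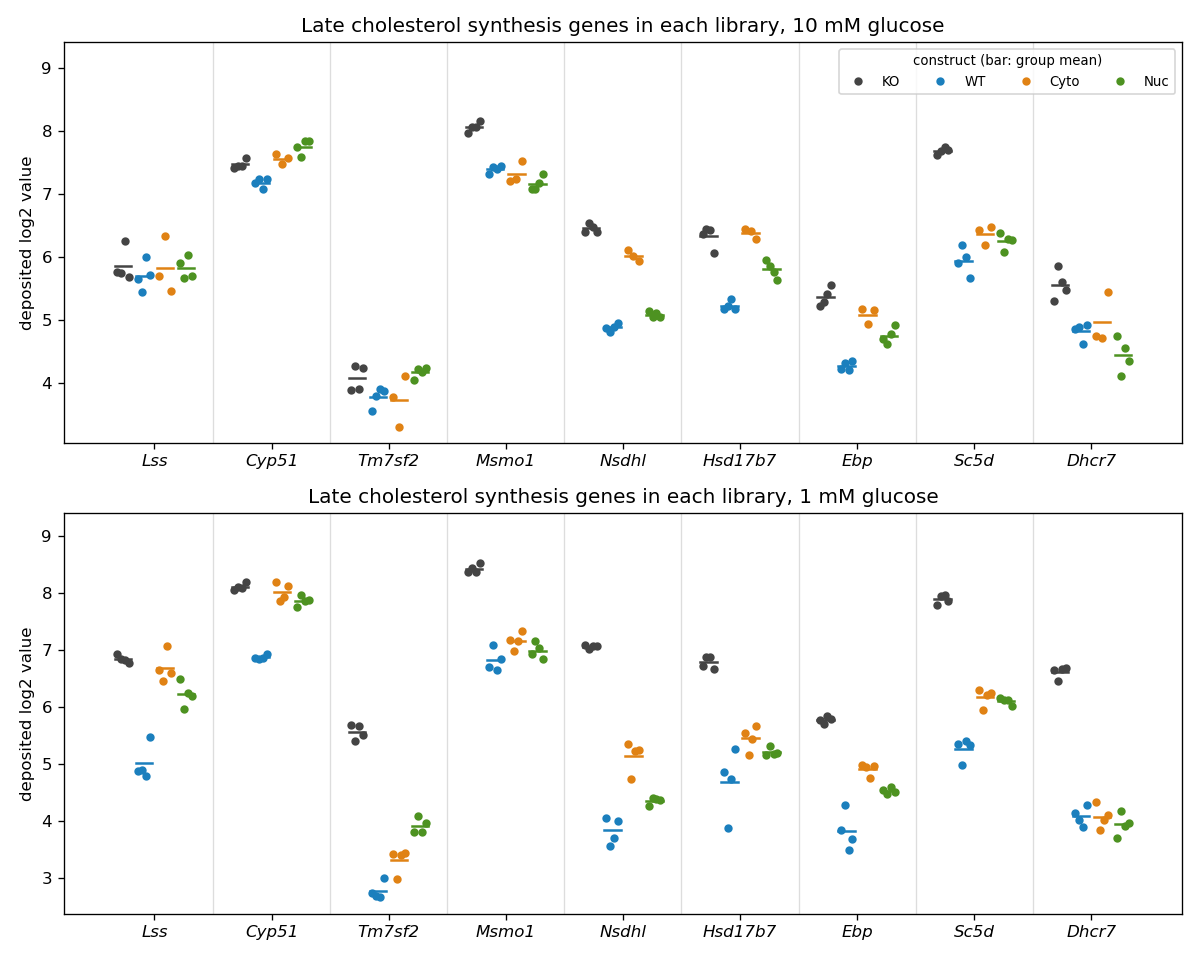
Deposited log2 value (y axis) of each member (x axis) in each library (points, coloured by construct, bars for group means), with 10 mM glucose above and 1 mM glucose below. The KO points of Nsdhl, Sc5d, Msmo1 and, narrowly at 10 mM glucose, Ebp lie above all points of the other constructs in both panels. Those of Lss lie above the points of WT and Nuc at 1 mM glucose only.

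**Figure D2:**
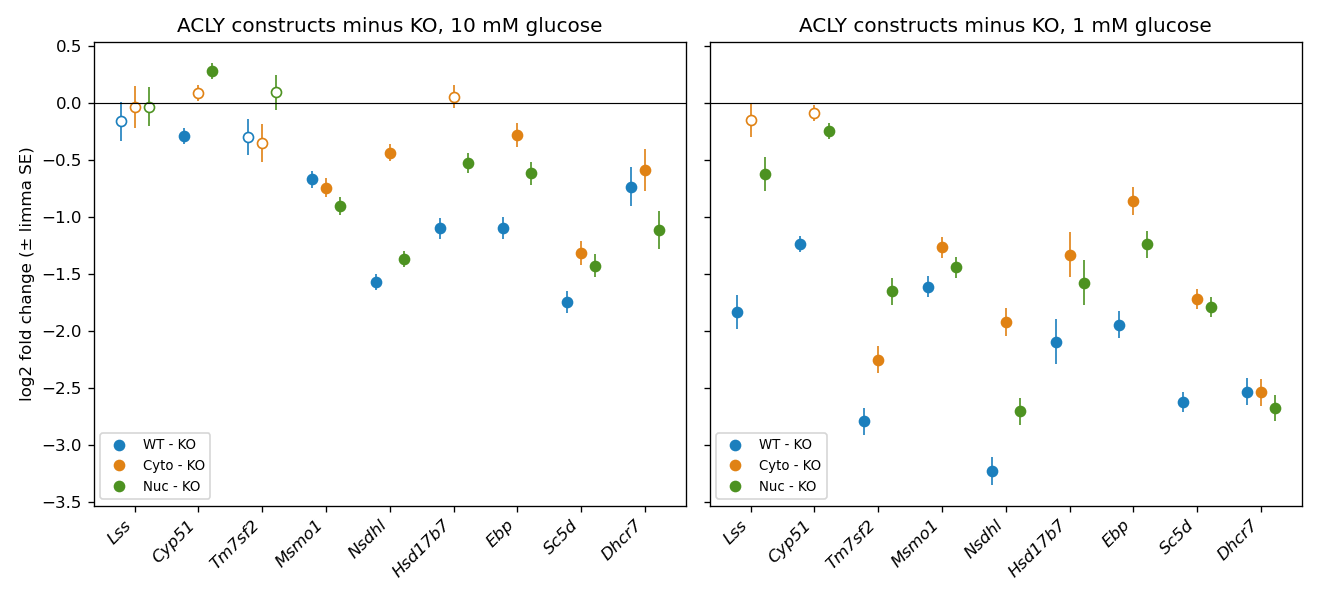
Log2 fold change against KO (y axis, bars are limma's standard error) of each member in pathway order (x axis) for WT, Cyto and Nuc, with 10 mM glucose on the left and 1 mM on the right, filled where called. Folds at 10 mM glucose run from -1.74 to 0.28, and those at 1 mM glucose from -3.23 to -0.08.

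Lss encodes lanosterol synthase, which folds the squalene epoxide into the first sterol ring system. With 10 mM glucose its log2 values were 5.77, 5.74, 6.25 and 5.68 in KO, 5.65, 5.44, 5.99 and 5.72 in WT, 5.69, 6.32 and 5.45 in Cyto and 5.91, 5.67, 6.03 and 5.70 in Nuc libraries. The 4 groups overlapped, with KO library 3 above the other KO libraries and Cyto library 2 above the other Cyto libraries. The library numbered 3 was also the highest in WT and in Nuc. No construct differed from KO by the test, with log2 fold changes of -0.16 ± 0.17, -0.04 ± 0.18 and -0.03 ± 0.17 (limma adjusted p = 0.480, 0.895 and 0.893). The near-zero fold of Cyto changed sign without KO 3, Cyto 1 or Cyto 4, and that of Nuc without KO 3, Nuc 2 or Nuc 4. In 1 mM glucose the values were 6.93, 6.84, 6.83 and 6.77 in KO, 4.88, 4.89, 4.79 and 5.48 in WT, 6.65, 6.45, 7.07 and 6.60 in Cyto and 6.49, 5.97, 6.25 and 6.19 in Nuc libraries. WT lay below every other library, and KO overlapped with Cyto but not with Nuc. Lss was at 28.1% of the KO level in WT, a log2 fold change of -1.83 ± 0.15 (limma adjusted p = 2.32e-08), and at 65.0% in Nuc, -0.62 ± 0.15 (limma adjusted p = 0.00162). In Cyto its fold change of -0.15 ± 0.15 did not pass (adjusted p = 0.380).

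Cyp51 encodes the cytochrome P450 that removes the first of the extra methyl groups from lanosterol, and Tm7sf2 a reductase of the double bond that this step leaves. In 10 mM glucose the log2 values of Cyp51 were 7.41, 7.45, 7.45 and 7.56 in KO, 7.16, 7.23, 7.08 and 7.23 in WT, 7.63, 7.48 and 7.56 in Cyto and 7.74, 7.58, 7.84 and 7.83 in Nuc libraries. WT lay below and Nuc above all KO libraries. Its log2 fold changes were small and of opposite sign, -0.29 ± 0.07 (limma adjusted p = 0.00239) in WT and 0.28 ± 0.07 (limma adjusted p = 0.00254) in Nuc, while Cyto had 0.09 ± 0.07 (limma adjusted p = 0.357). At 1 mM glucose the values were 8.05, 8.10, 8.09 and 8.19 in KO, 6.87, 6.84, 6.86 and 6.93 in WT, 8.19, 7.85, 7.93 and 8.13 in Cyto and 7.75, 7.97, 7.86 and 7.88 in Nuc libraries. WT again stood apart below all others, and Nuc lay below KO without overlap. There Cyp51 fell to 42.4% of KO in WT (-1.24 ± 0.07) and to 84.5% in Nuc (-0.24 ± 0.07), with Cyto at -0.08 ± 0.07 (adjusted p = 0.307). The Cyto value passed the test after quantile normalization (-0.20, adjusted p = 0.0232). Cyp51 overlaps the gene Akap9 on the other strand, and the sources used here do not state whether reads were assigned by strand. Akap9 had log2 fold changes of 0.33 ± 0.17 in WT (adjusted p = 0.109), 0.54 ± 0.17 in Cyto (0.00931) and 0.68 ± 0.17 in Nuc (0.00232) at 1 mM glucose.

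The log2 values of Tm7sf2 at 10 mM glucose were 3.90, 4.27, 3.90 and 4.23 in KO, 3.55, 3.80, 3.90 and 3.87 in WT, 3.78, 3.30 and 4.11 in Cyto and 4.05, 4.22, 4.17 and 4.23 in Nuc libraries, and every ACLY group overlapped with KO. None of its folds passed, with -0.30 ± 0.15 in WT, -0.35 ± 0.17 in Cyto and 0.09 ± 0.15 in Nuc (adjusted p = 0.138, 0.114 and 0.665). The Cyto fold passed without Cyto library 4 (-0.54, adjusted p = 0.0203). With 1 mM glucose the values were 5.68, 5.40, 5.66 and 5.51 in KO, 2.73, 2.68, 2.67 and 3.0 in WT, 3.43, 2.97, 3.40 and 3.44 in Cyto and 3.80, 4.08, 3.80 and 3.96 in Nuc libraries. The KO libraries lay more than 1 log2 unit above every library with ACLY. Tm7sf2 fell to 14.4% of KO in WT (-2.79 ± 0.12, limma adjusted p = 1.03e-11), 21.0% in Cyto (-2.25 ± 0.12) and 31.8% in Nuc (-1.65 ± 0.12). It overlaps Vps51 on the same strand, and Vps51 had -0.05 ± 0.08 in WT, -0.68 ± 0.08 in Cyto and -0.20 ± 0.08 in Nuc at 1 mM glucose. At 10 mM glucose Vps51 had 0.40 ± 0.11 in WT, 0.03 ± 0.12 in Cyto and 0.38 ± 0.11 in Nuc.

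Msmo1, Nsdhl and Hsd17b7 act in turn on the remaining methyl groups: Msmo1 is the methylsterol oxidase, Nsdhl the decarboxylating dehydrogenase and Hsd17b7 the reductase of the ketone that results. Nsdhl had the lowest fold change of the members in WT and, close to that of Dhcr7, in Nuc at 1 mM glucose, while Dhcr7 and Tm7sf2 were lower in Cyto. At 10 mM glucose its log2 values were 6.39, 6.54, 6.47 and 6.40 in KO, 4.87, 4.81, 4.89 and 4.95 in WT, 6.12, 6.01 and 5.93 in Cyto and 5.13, 5.04, 5.11 and 5.05 in Nuc libraries, and the 4 groups did not overlap at all. It fell to 33.7% of KO in WT (-1.57 ± 0.07, limma adjusted p = 4.47e-11) and to 38.7% in Nuc (-1.37 ± 0.07), but only to 74.0% in Cyto (-0.43 ± 0.07). In 1 mM glucose its values were 7.09, 7.01, 7.08 and 7.06 in KO, 4.05, 3.57, 3.70 and 4.0 in WT, 5.34, 4.74, 5.22 and 5.25 in Cyto and 4.26, 4.40, 4.39 and 4.37 in Nuc libraries. The same order, KO over Cyto over Nuc over WT, held again without overlap. Nsdhl was at 10.7%, 26.4% and 15.3% of KO in WT, Cyto and Nuc, with log2 fold changes of -3.23 ± 0.12, -1.92 ± 0.12 and -2.70 ± 0.12 (adjusted p at most 5.7e-10). Groups that do not overlap were common, at 19.2% of all genes lower in WT than in KO at 10 mM glucose and 24.4% at 1 mM glucose. The share of genes with all 4 groups apart was not computed.

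Hsd17b7 at 10 mM glucose had log2 values of 6.36, 6.44, 6.43 and 6.07 in KO, 5.17, 5.23, 5.34 and 5.17 in WT, 6.44, 6.42 and 6.29 in Cyto and 5.95, 5.86, 5.76 and 5.63 in Nuc libraries. Cyto overlapped with KO, whereas WT and Nuc lay below both. It was at 46.6% of KO in WT (-1.10 ± 0.09, limma adjusted p = 1.12e-07), 69.4% in Nuc (-0.53 ± 0.09) and 104% in Cyto, where the fold change of 0.06 ± 0.10 did not pass (adjusted p = 0.692) and turned to -0.030 without KO library 4. At 1 mM glucose the values were 6.72, 6.87, 6.88 and 6.66 in KO, 4.87, 3.88, 4.74 and 5.27 in WT, 5.55, 5.15, 5.44 and 5.67 in Cyto and 5.15, 5.31, 5.18 and 5.19 in Nuc libraries, with WT library 2 lowest and KO above all others. Cyto also fell here, by 1.33 ± 0.20, beside -2.09 ± 0.20 in WT and -1.58 ± 0.20 in Nuc (adjusted p at most 1.56e-05). The 10 mM values of Msmo1 ran from 7.97 to 8.15 in KO, 7.32 to 7.44 in WT, 7.19 to 7.53 in Cyto and 7.08 to 7.31 in Nuc, and the 1 mM values from 8.37 to 8.54, 6.66 to 7.08, 6.99 to 7.33 and 6.84 to 7.16. KO lay above every other library in both media. Msmo1 fell in each construct at 10 mM glucose (-0.67 ± 0.08, -0.74 ± 0.08 and -0.90 ± 0.08 in WT, Cyto and Nuc) and at 1 mM glucose (-1.61 ± 0.09, -1.27 ± 0.09 and -1.44 ± 0.09), with adjusted p of at most 2.91e-06.

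Ebp, Sc5d and Dhcr7 finish the ring: Ebp is the isomerase that moves the ring double bond, Sc5d the desaturase that adds a second one, and Dhcr7 the reductase that removes one of the pair and so yields cholesterol. Sc5d had the lowest fold change of the members in each of the 3 ACLY groups at 10 mM glucose. Its log2 values there were 7.61, 7.68, 7.73 and 7.69 in KO, 5.90, 6.19, 5.99 and 5.66 in WT, 6.43, 6.18 and 6.47 in Cyto and 6.38, 6.08, 6.28 and 6.27 in Nuc libraries, with KO above all others by more than 1 log2 unit. It stood at 29.9%, 40.1% and 37.2% of KO in WT, Cyto and Nuc (-1.74 ± 0.10, -1.32 ± 0.11 and -1.43 ± 0.10, adjusted p at most 8.93e-08). With 1 mM glucose the values were 7.79, 7.94, 7.96 and 7.87 in KO, 5.35, 4.98, 5.40 and 5.34 in WT, 6.29, 5.95, 6.20 and 6.24 in Cyto and 6.16, 6.12, 6.12 and 6.01 in Nuc libraries, where Cyto and Nuc overlapped and WT lay below both. The folds against KO were -2.62 ± 0.09 in WT, -1.72 ± 0.09 in Cyto and -1.79 ± 0.09 in Nuc. Ebp ran from 5.21 to 5.55 in KO, 4.21 to 4.35 in WT, 4.93 to 5.17 in Cyto and 4.61 to 4.91 in Nuc at 10 mM glucose. It fell by 1.09 ± 0.10 in WT and 0.62 ± 0.10 in Nuc. Its smaller Cyto difference, -0.28 ± 0.10 (limma adjusted p = 0.0427), was no longer called without any 1 of KO 3 and 4, WT 1, 2 and 3, Cyto 2 and 4 and Nuc 3 (adjusted p = 0.0514 to 0.198), nor in a fit of Cyto and KO alone (0.0823). In 1 mM glucose Ebp ran from 5.70 to 5.83, 3.50 to 4.29, 4.75 to 4.98 and 4.47 to 4.60 in KO, WT, Cyto and Nuc, and its folds were -1.95 ± 0.12, -0.86 ± 0.12 and -1.24 ± 0.12 in WT, Cyto and Nuc. The 4 groups did not overlap in either medium.

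Dhcr7 at 10 mM glucose had log2 values of 5.29, 5.86, 5.61 and 5.47 in KO, 4.85, 4.89, 4.62 and 4.92 in WT, 4.75, 4.72 and 5.44 in Cyto and 4.75, 4.12, 4.56 and 4.34 in Nuc libraries. Cyto library 4 overlapped with KO, while WT and Nuc lay below it. The folds were -0.73 ± 0.17 (limma adjusted p = 0.00228) in WT, -1.11 ± 0.17 (limma adjusted p = 4.47e-05) in Nuc and -0.59 ± 0.18 (limma adjusted p = 0.0168) in Cyto, and the Cyto call was lost without any 1 of KO 2 and Cyto 1 and 2 (adjusted p = 0.0550 to 0.0937). At 1 mM glucose its values were 6.65, 6.45, 6.67 and 6.68 in KO, 4.14, 4.02, 3.89 and 4.28 in WT, 4.34, 3.85, 4.01 and 4.10 in Cyto and 3.70, 4.17, 3.91 and 3.97 in Nuc libraries. The 3 ACLY groups overlapped with each other and lay more than 2 log2 units below KO. Dhcr7 was at 17.3%, 17.2% and 15.7% of KO in WT, Cyto and Nuc (-2.53 ± 0.12, -2.54 ± 0.12 and -2.68 ± 0.12, adjusted p at most 3.33e-11).

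The next question was whether the form of ACLY mattered for these genes. The groups also differ in the value read for Acly and as cell lines, so the place of ACLY cannot be told apart from these. Against WT, Cyto cells had 5 members higher and 0 lower at 10 mM glucose (15.9% of all genes called higher) and 8 higher and 0 lower at 1 mM glucose (25.7%). With 10 mM glucose the widest of these differences were those of Hsd17b7 (1.16 ± 0.10), Nsdhl (1.14 ± 0.07) and Ebp (0.81 ± 0.10), with adjusted p of at most 2.28e-05. Sc5d and Cyp51 had 0.43 ± 0.11 and 0.38 ± 0.07. Lss, Tm7sf2, Msmo1 and Dhcr7 did not pass, with 0.12 ± 0.18, -0.05 ± 0.17, -0.07 ± 0.08 and 0.15 ± 0.18. With 1 mM glucose Lss led with 1.68 ± 0.15, or 321% of WT, followed by Nsdhl (1.31 ± 0.12), Cyp51 (1.15 ± 0.07) and Ebp (1.09 ± 0.12). Sc5d, Hsd17b7, Tm7sf2 and Msmo1 had 0.90 ± 0.09, 0.76 ± 0.20, 0.54 ± 0.12 and 0.35 ± 0.09, and Dhcr7, at -0.01 ± 0.12, was the member not called (adjusted p = 0.962).

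Nuc cells had 5 members higher and 1 lower than WT at 10 mM glucose (15% and 13.8% of all genes). The folds of Hsd17b7, Cyp51 and Ebp were 0.57 ± 0.09, 0.57 ± 0.07 and 0.48 ± 0.10. Of the 6 called, 3 were left without Nuc 1 or Nuc 3. Smaller calls depended on single libraries. That of Msmo1 (-0.23 ± 0.08) was lost without any 1 of WT 2, 3 and 4 and Nuc 1, 2 and 3 (adjusted p = 0.0528 to 0.0811) or without the variance trend (0.0508). That of Nsdhl (0.20 ± 0.07) was lost without any 1 of WT 1, 2 and 3 and Nuc 1 and 3 (adjusted p = 0.0634 to 0.0974), and that of Sc5d (0.32 ± 0.10) without any 1 of WT 1 and 4 and Nuc 1 and 3 (adjusted p = 0.0549 to 0.0846). A fit of Nuc and WT alone also lost Nsdhl (0.0689) and Sc5d (0.0516). Tm7sf2 had 0.39 ± 0.15 (limma adjusted p = 0.0697) and was called without Cyto 2 or Cyto 4 in the shared fit (adjusted p = 0.0331 to 0.0406). Dhcr7 had -0.38 ± 0.17 (limma adjusted p = 0.104). In 1 mM glucose 7 members were higher in Nuc than in WT and 0 lower (19.7% of all genes called higher). They included Lss (1.21 ± 0.15), Tm7sf2 (1.14 ± 0.12), Cyp51 (0.99 ± 0.07), Sc5d (0.83 ± 0.09), Ebp (0.71 ± 0.12) and Nsdhl (0.52 ± 0.12). Hsd17b7, with 0.52 ± 0.20 (limma adjusted p = 0.0472), lost its call in 13 of 16 fits without 1 library, those without KO 1, 2, 3 and 4, WT 2 and 3, Cyto 1, 3 and 4 and Nuc 1, 2, 3 and 4 (adjusted p = 0.0517 to 0.107). Its fold was 0.25 without WT 2. The call was also lost without the variance trend (adjusted p = 0.0657), with equal library medians (0.0502), with array weights (0.0587, fold 0.28) and in a fit of Nuc and WT alone (0.132). Msmo1 and Dhcr7 had 0.17 ± 0.09 and -0.14 ± 0.12 and were not called. Without WT 2 Msmo1 had 0.26 (adjusted p = 0.0154).

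Nuc was also compared with Cyto. In 10 mM glucose 4 members were lower in Nuc and 0 higher (15.7% of all genes called lower): Nsdhl (-0.93 ± 0.07, limma adjusted p = 9.72e-08), Hsd17b7 (-0.58 ± 0.10, limma adjusted p = 0.000275), Ebp (-0.34 ± 0.10, limma adjusted p = 0.0225) and Dhcr7 (-0.53 ± 0.18, limma adjusted p = 0.0362). The count was 2 when the fit held these groups alone, with Ebp at 0.0514 and Dhcr7 at 0.0782 by adjusted p. Dhcr7 also lost its call without the variance trend (0.0556) and with array weights (0.0559). The Ebp call was lost without any 1 of Cyto 1 and 4 and Nuc 1 and 2 (adjusted p = 0.0521 to 0.0931) and the Dhcr7 call without any 1 of Cyto 4 and Nuc 2 and 4 (adjusted p = 0.0652 to 0.237), with a fold of -0.29 without Cyto 4. Cyp51 (0.19 ± 0.07, limma adjusted p = 0.0534) was called without KO 4 or Nuc 2 (adjusted p = 0.0128 to 0.0488) and Tm7sf2 (0.44 ± 0.17, limma adjusted p = 0.0562) without Cyto 4 (adjusted p = 0.0108). Lss, Msmo1 and Sc5d had 0.0033 ± 0.18, -0.16 ± 0.08 and -0.11 ± 0.11. At 1 mM glucose 3 were lower and 1 higher in Nuc than in Cyto (20.5% and 20.4% of all genes). Nsdhl (-0.78 ± 0.12), Ebp (-0.38 ± 0.12) and Lss (-0.47 ± 0.15) were lower, and Tm7sf2 (0.60 ± 0.12) was higher. Vps51, which overlaps Tm7sf2 on the same strand, was also higher in Nuc than in Cyto. Its folds were 0.48 ± 0.08 at 1 mM glucose (limma adjusted p = 0.00016) and 0.34 ± 0.12 at 10 mM glucose (0.0440). The part of this overlap in the Tm7sf2 values was not tested. The Lss call was lost without Cyto 3 or Nuc 2 (adjusted p = 0.0639 to 0.0695). Cyp51, at -0.16 ± 0.07 (limma adjusted p = 0.080), was called without Cyto 2 (adjusted p = 0.0210). Nsdhl and Ebp were thus lower in Nuc than in Cyto in both media, and Sc5d did not pass in either (-0.11 ± 0.11 and -0.07 ± 0.09). The order of group means was KO, Cyto, Nuc and WT for Nsdhl and Ebp in both media, with every neighbouring step called in the fit of all libraries, and the same for Sc5d except the step from Cyto to Nuc. For Dhcr7 the only neighbouring step called in each medium was the one below KO. Its Nuc mean was also called below that of Cyto at 10 mM glucose, though these are not neighbours in its order.

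**Figure D3:**
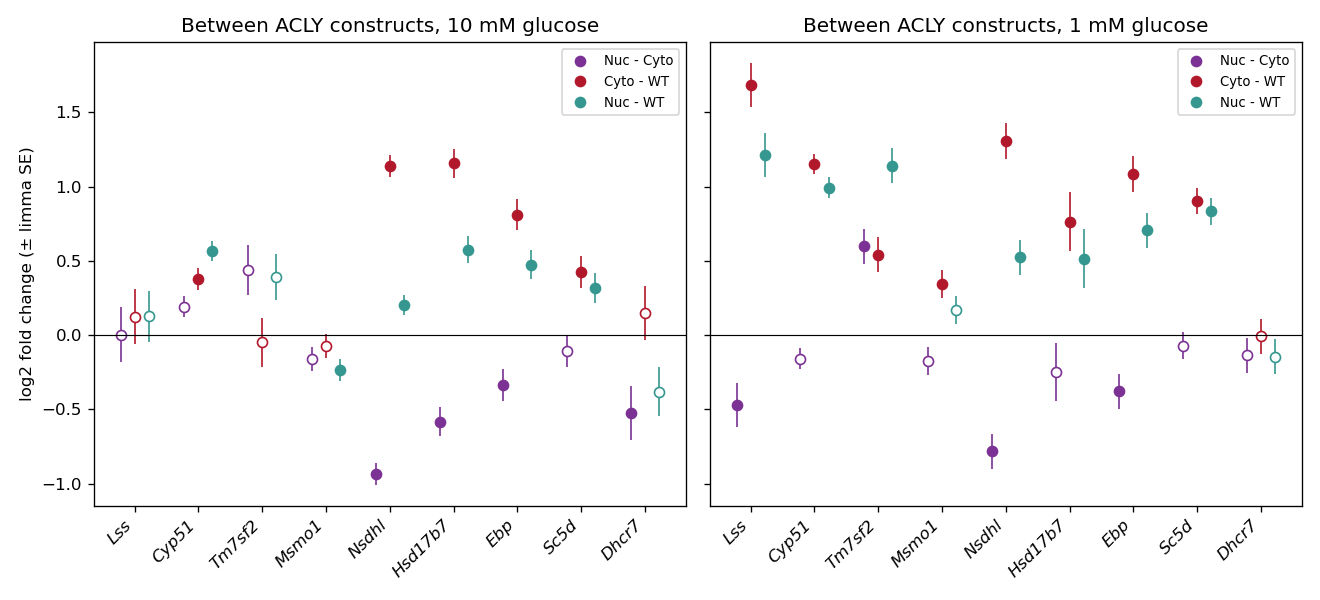
Log2 fold change (y axis, bars are limma's standard error) of each member (x axis) for Nuc against Cyto, Cyto against WT and Nuc against WT, 10 mM glucose on the left and 1 mM on the right, filled where called. Cyto against WT reaches 1.68 for Lss at 1 mM glucose, and Nuc against Cyto has its lowest points at Nsdhl, -0.93 and -0.78.

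Whether a fold change differed between the media was tested by subtracting the 10 mM log2 fold change from the 1 mM one. A difference of this kind removes only batch effects that all constructs share. The WT fold against KO was lower at 1 mM glucose for 9 of 9 members (12.7% of 11931 shared genes called in this direction). The differences were -2.49 ± 0.20 for Tm7sf2, -1.80 ± 0.21 for Dhcr7, -1.67 ± 0.24 for Lss and -1.66 ± 0.14 for Nsdhl, and between -0.99 and -0.85 for the other 5, with limma adjusted p of at most 0.00174. For Cyto the difference was called for 7 members (23.2% of shared genes), led by Dhcr7 (-1.95 ± 0.22), Tm7sf2 (-1.90 ± 0.20), Nsdhl (-1.49 ± 0.15) and Hsd17b7 (-1.39 ± 0.24). Lss (-0.11 ± 0.25) and Cyp51 (-0.17 ± 0.10) did not pass. For Nuc it was called for 8 (18.7% of shared genes), led by Tm7sf2 (-1.74 ± 0.20) and Dhcr7 (-1.56 ± 0.21). Lss, at -0.59 ± 0.24 (limma adjusted p = 0.0540), was called in 8 of 31 fits without 1 library, those without 10 mM KO 3, 10 mM Cyto 2 and 4, 10 mM Nuc 2 and 4, 1 mM WT 4, 1 mM Cyto 3 and 1 mM Nuc 1 (adjusted p = 0.0190 to 0.0494). The Sc5d differences were the smallest called ones for Cyto and Nuc. In Cyto (-0.40 ± 0.14) it was lost without any 1 of 10 mM Cyto 1 and 4 and 1 mM Cyto 2 (adjusted p = 0.0602 to 0.0712), and in Nuc (-0.36 ± 0.14) without any 1 of 10 mM KO 1 and 2, 10 mM Nuc 1, 3 and 4, 1 mM KO 2 and 3 and 1 mM Nuc 2, 3 and 4 (adjusted p = 0.0503 to 0.0803). The Nuc to Cyto difference itself changed between media for Cyp51 alone (-0.35 ± 0.10, limma adjusted p = 0.0125, 9.48% of shared genes called in this direction). Lss (-0.47 ± 0.25) was called as well without the 10 mM library Cyto 2 (-0.72, so 2 members in place of 1, adjusted p = 0.0356).

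**Figure D4:**
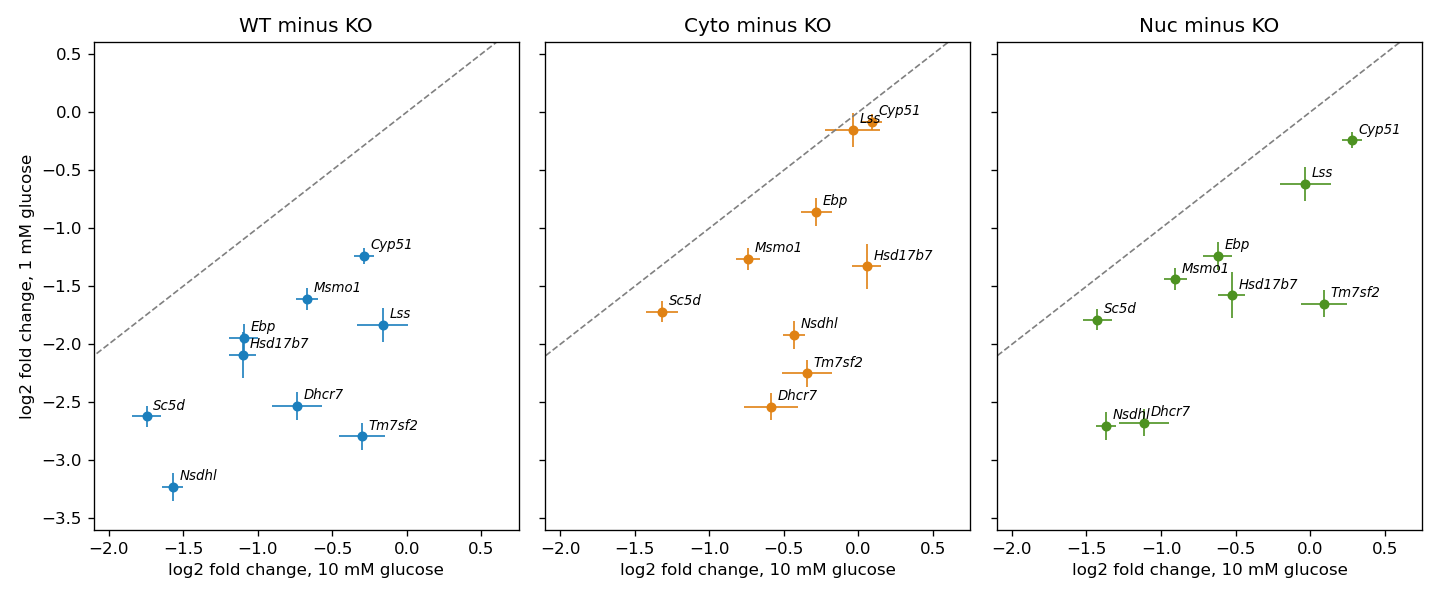
Log2 fold change against KO at 10 mM glucose (x axis) and at 1 mM glucose (y axis) of each member, with limma standard errors, in panels for WT, Cyto and Nuc, and a dashed line of equality. Every member lies below the line, Tm7sf2 and Dhcr7 far below it in each panel, and Lss and Cyp51 close to it for Cyto.

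The rest of the pathway was read from lists chosen with earlier results of these data known, so the counts support nothing by themselves. The share of all genes called lower than KO in WT, Cyto and Nuc was 20.2%, 18.9% and 22.7% at 10 mM and 28.5%, 33% and 29.5% at 1 mM, and the share called higher 20.6%, 19.6% and 22.7% and 29.7%, 31.7% and 30.5%, against which the counts of these lists are to be read. Of 11 early enzymes, from Acat2 to Sqle, 9 lower and 0 higher were called in WT, 4 lower and 0 higher in Cyto and 10 lower and 0 higher in Nuc against KO at 10 mM glucose (medians -0.81, -0.26 and -0.82). With 1 mM glucose the counts were 10 lower and 1 higher, 9 lower and 1 higher and 10 lower and 1 higher (medians -1.87, -1.04 and -1.55). The higher one, named after its values were seen, was Ggps1 of the branch to geranylgeranyl lipids (0.27, 0.59 and 0.32). Among the others Sqle, the epoxidase just ahead of Lss, had -1.40 ± 0.07, -0.71 ± 0.07 and -1.15 ± 0.07 in WT, Cyto and Nuc with 1 mM glucose, and Lss had its own Cyto value of -0.15 next to these. Hmgcs1 had -1.60 ± 0.07, -1.04 ± 0.07 and -1.55 ± 0.07, Idi1 -2.57 ± 0.09, -1.69 ± 0.09 and -2.14 ± 0.09, and the squalene synthase gene Fdft1 -1.10 ± 0.09, -0.69 ± 0.09 and -1.37 ± 0.09. At 10 mM the Cyto folds of Sqle, Hmgcs1 and Fdft1 were 0.11 ± 0.06, 0.09 ± 0.09 and 0.22 ± 0.09 and not called, and that of Idi1 was -0.52 ± 0.08.

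Of 12 listed partners and alternates of the late enzymes, 8 lower and 3 higher were called in WT, 7 lower and 4 higher in Cyto and 10 lower and 1 higher in Nuc at 1 mM glucose, with medians of -0.31, -0.29 and -0.38. At 10 mM the counts were 6 lower and 1 higher, 3 lower and 3 higher and 6 lower and 2 higher. Among the higher ones at 1 mM, named after their values were seen, were Cyb5r3 and Pgrmc2 in WT, Cyb5a, Pgrmc1 and Pgrmc2 in Cyto, and Pgrmc2 in Nuc. Lbr, whose product carries the same reductase activity as Tm7sf2, fell by 0.98 ± 0.17, 0.69 ± 0.19 and 1.15 ± 0.17 in WT, Cyto and Nuc at 10 mM and by 1.19 ± 0.07, 0.66 ± 0.07 and 0.97 ± 0.07 at 1 mM glucose. None of its differences between media passed (adjusted p = 0.444, 0.903 and 0.503), while those of Tm7sf2 did. Por, which feeds electrons to Cyp51, had -0.53 ± 0.06, -0.57 ± 0.06 and -0.36 ± 0.06 at 1 mM glucose and -0.70 ± 0.09, 0.10 ± 0.10 and -0.17 ± 0.09 at 10 mM, where WT alone was called.

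Of 13 listed genes of SREBP control and sterol uptake, 6 lower and 5 higher, 4 lower and 5 higher and 5 lower and 3 higher were called in WT, Cyto and Nuc at 10 mM glucose, and 7 lower and 2 higher, 7 lower and 6 higher and 7 lower and 2 higher at 1 mM glucose. The higher ones in WT and Nuc at 1 mM glucose, named after their values were seen, were Scap and Npc1. In 1 mM glucose Srebf2, which encodes SREBP2, had -0.95 ± 0.09, -0.43 ± 0.09 and -1.0 ± 0.09 in WT, Cyto and Nuc. At 10 mM it was lower in WT (-0.25 ± 0.06) and Nuc (-0.16 ± 0.06) but higher in Cyto (0.31 ± 0.06). Stard4, a sterol carrier, had -2.43 ± 0.10, -1.89 ± 0.10 and -1.77 ± 0.10 at 1 mM and -1.20 ± 0.08, -0.86 ± 0.08 and -1.02 ± 0.08 at 10 mM. Insig1, which retains the SREBP complex in the endoplasmic reticulum, was higher in Cyto (1.15 ± 0.08) and lower in WT (-0.36 ± 0.08) and Nuc (-0.51 ± 0.08) at 1 mM, whereas at 10 mM it was higher in all 3, by 0.92 ± 0.09 in WT, 2.18 ± 0.09 in Cyto and 0.72 ± 0.09 in Nuc. Of 8 listed genes of LXR response and efflux 2 lower and 3 higher, 2 lower and 4 higher and 0 lower and 4 higher were called in WT, Cyto and Nuc with 1 mM glucose, and 2 lower and 5 higher, 1 lower and 4 higher and 2 lower and 5 higher with 10 mM. At 1 mM, beside Abca1 and Mylip the higher ones, named after their values were seen, were Nr1h2 in all 3 and Soat1 in Cyto and Nuc, and the lower ones were Lpcat3 and Ch25h. At that level the exporter Abca1 rose by 2.75 ± 0.15, 3.31 ± 0.15 and 2.66 ± 0.15, and Mylip, a ubiquitin ligase gene of the LXR response, by 0.65 ± 0.10, 0.86 ± 0.10 and 0.34 ± 0.10. At 10 mM Abca1 rose by 1.46 ± 0.16, 3.0 ± 0.18 and 1.42 ± 0.16, and Mylip by 0.27 ± 0.10, 0.80 ± 0.10 and 0.39 ± 0.10.

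The genes whose pattern was most like that of the members were ranked by the smaller of their Pearson r in each table, across 15 and 16 libraries, with the mean of the members, each scaled to its own mean and SD. The libraries share their construct groups, so these values describe group differences as well as libraries. The members themselves were not all alike at 10 mM glucose. There Lss, Tm7sf2 and Cyp51 had r of 0.09, 0.23 and 0.25 with the mean of the other members. The rest had 0.61 (Dhcr7) to 0.94 (Ebp). At 1 mM glucose r ran from 0.75 (Cyp51) to 0.99 (Sc5d). First of 11922 genes was the early enzyme gene Idi1 (r = 0.96 at 10 mM and 0.98 at 1 mM glucose), followed by Pcyt1b of phosphatidylcholine synthesis (0.96 and 0.97) and Mvk, the mevalonate kinase (0.96 and 0.95). Next came Pts of tetrahydrobiopterin synthesis, Lancl2, Raver1, the secreted Wnt enhancer Rspo2 and the potassium channel gene Kcnd1, each with r of at least 0.91 in both tables.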

How the data were processed

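RNA-seq values of 31 libraries came from 2 deposited tables, with 15 libraries at 10 mM and 16 at 1 mM glucose. The authors deposited normalized log2 values per gene, and per the submitters' processing notes kallisto, edgeR and limma were used with GRCm39. Their versions and settings, the filter on genes and the use of strand are not given in the sources used here. Because the linear values of a library sum to 951720 to 1031673 and 933382 to 1097738, they were read as CPM. Depth is unknown, so no counting interval is given. Each table held 1 entry with no symbol, which was dropped.

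The deposited values were used unfiltered. With limma 3.58.1 (R 4.3.3), means of the 4 constructs were fitted per table letting the prior variance follow the mean level, and changes of fold between media on the 11931 genes that both tables list. Values after ± are limma's standard errors (n = 4 libraries a group, n = 3 for Cyto at 10 mM). The fit was tested on simulated data.

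The members and lists were chosen with earlier results of these data known. Named genes are Acly, the 9 members, 14 further pathway genes set by name, and the 8 most alike in pattern. The rule for likeness passed over unnamed gene models, and none ranked among the first 8. Of the 14, 3 are not reported here. Akap9 and Vps51 were added because they overlap members. Alternatives dropped the trend, equalised library medians, quantile-normalized the table, added 1 to linear values, required a mean log2 of at least 0, weighted libraries by quality, blocked on the replicate number, fitted 2 groups without the rest, or omitted single libraries. The anomalous library has no column in the tables, so adding it was not run.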

Additional observations from a re-analysis of the deposited data

Results flagged for a closer look

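In 63 groups of 4 libraries, 1 per member, construct and medium, Dixon's test at the 95% level marked 5 libraries as far from the other 3, where chance gives about 1 in 20. Lss was at 6.25 in KO library 3 in 10 mM glucose, with the others at 5.68 to 5.77, and at 5.48 in WT library 4 in 1 mM glucose, with the others at 4.79 to 4.89. In 10 mM glucose the library numbered 3 was also the highest for Lss in WT (5.99) and in Nuc (6.03). In 1 mM glucose Tm7sf2 was at 2.97 in Cyto library 2 (others 3.40 to 3.44), Sc5d at 4.98 in WT library 2 (others 5.34 to 5.40) and Dhcr7 at 6.45 in KO library 2 (others 6.65 to 6.68).

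The fold against KO differed between media, by limma on the difference itself (1 mM minus 10 mM), for these members. In WT the differences were -1.67 for Lss, -0.95 for Cyp51, -2.49 for Tm7sf2, -0.94 for Msmo1, -1.66 for Nsdhl, -0.99 for Hsd17b7, -0.85 for Ebp, -0.88 for Sc5d and -1.80 for Dhcr7. In Cyto they were -1.90 for Tm7sf2, -0.52 for Msmo1, -1.49 for Nsdhl, -1.39 for Hsd17b7, -0.58 for Ebp, -0.40 for Sc5d and -1.95 for Dhcr7. In Nuc they were -0.52 for Cyp51, -1.74 for Tm7sf2, -0.54 for Msmo1, -1.34 for Nsdhl, -1.05 for Hsd17b7, -0.62 for Ebp, -0.36 for Sc5d and -1.56 for Dhcr7. The Nuc to Cyto difference changed for Cyp51, by -0.35. Medium and batch cannot be told apart in these values.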

How the results depend on the processing

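Of 1116 fold changes of single members under other settings, 1084 kept direction and side of the threshold, and of 2790 with 1 library left out, 2681 did. Over all genes, 123 of 124 counts of calls stayed within 1.5 times the reported one. Array weights gave 3672 calls for the change of Nuc against Cyto between media, against 2261. The cause was not tested. For the members, 2 rather than 4 were called for Nuc against Cyto in 10 mM glucose with these groups alone, a fit with fewer samples. Without 1 library, counts of called members ran from 3 to 5 for Cyto against KO and 3 to 7 for Nuc against WT in 10 mM glucose. They ran from 1 to 2 for the change of Nuc against Cyto between media. These counts also ran from 3 to 5 for Nuc against Cyto in each medium and 6 to 7 for Nuc against WT in 1 mM glucose. For the change against KO between media they ran from 6 to 7 in Cyto and 7 to 9 in Nuc.

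Sign changes met only folds that were not called. They were Lss (Nuc to Cyto in 10 mM) at -0.13 with array weights, Sc5d (Nuc to Cyto between media) at -0.0047 with array weights, Lss (Cyto to KO in 10 mM) at 0.061 with the replicate block and Lss (Nuc to Cyto in 10 mM) at -0.095 with the replicate block. Without 1 library, folds ran from -0.096 to 0.069 for Dhcr7 (Cyto to WT in 1 mM), -0.087 to 0.27 for Dhcr7 (Cyto to WT in 10 mM), -0.097 to 0.033 for Ebp (Nuc to Cyto between media), -0.030 to 0.10 for Hsd17b7 (Cyto to KO in 10 mM), -0.29 to 0.15 for Lss (Cyto to KO in 10 mM), -0.30 to 0.14 for Lss (Cyto to KO between media), -0.13 to 0.31 for Lss (Cyto to WT in 10 mM), -0.18 to 0.25 for Lss (Nuc to Cyto in 10 mM), -0.10 to 0.096 for Lss (Nuc to KO in 10 mM), -0.12 to 0.049 for Msmo1 (Nuc to Cyto between media), -0.036 to 0.13 for Sc5d (Nuc to Cyto between media), -0.24 to 0.17 for Tm7sf2 (Cyto to WT in 10 mM) and -0.032 to 0.38 for Tm7sf2 (Nuc to Cyto between media).

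With the replicate number as a block, 5745 genes were called for WT against KO in 10 mM and 6859 in 1 mM glucose, against 5218 and 7014. The numbers were not taken to pair the libraries, since the labels tie them to no shared source and same-numbered libraries had deviations with a correlation over 0.1 in only 5 of 21 pairs in 10 mM and 2 of 24 in 1 mM glucose. Best with their own number correlated 10 of 15 libraries in 10 mM, a hint of pairing there from the data and not the design, and 3 of 16 in 1 mM glucose. For Nuc against Cyto in 10 mM glucose the block added calls of Cyp51, Tm7sf2 and Msmo1 and lost that of Dhcr7, giving 2 higher and 4 lower. The small offset and unknown depth limit what low values such as those of Tm7sf2 can show.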

Other observations

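Beyond the genes named by the rule, ranks 9 to 20 of likeness to the members held genes of several kinds. Some belong to sterol and lipid handling and were chosen here after their values were seen. They included Acat2 (r = 0.95 across 15 libraries in 10 mM and 0.91 across 16 in 1 mM glucose), Stard4 (0.91 and 0.97), the fatty acid desaturase gene Fads1 (0.91 and 0.98) and the lipase gene Lipg (0.89 and 0.98). The same ranks also held Nab1, Ptprj, Ptk7, Six2, Mmab, Taf1 and Foxred2, which were not part of this choice.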
